A study of Mus musculus with 3 samples.

Results

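The cyclins, cyclin-dependent kinases (CDKs), CDK inhibitors and E2F transcription factors were taken from the count tables by gene symbol: cyclins A to L, numbered CDKs, the Cdkn1 to Cdkn3 genes and E2f1 to E2f8. This gave 55 of 41743 symbols, made up of 20 cyclins, 19 CDKs, 8 inhibitor genes and 8 E2Fs. Their RNA was measured by RIP-seq, the sequencing of RNA that comes down with an immunoprecipitated protein, in K7M2 cells, a mouse osteosarcoma line. The ezrin IP group holds 2 libraries made with anti-ezrin antibody, replicates 1 and 2. The IgG IP group, the background, is 1 library made with normal mouse IgG. All 3 libraries carried the same genotype, with the endogenous ezrin gene knocked out and ezrin T567A stably transfected, and the cells received no treatment. Ezrin links the membrane to actin, and the alanine of T567A removes a phosphorylation site and keeps the protein in its closed form. The labels do not state whether the line is a single clone or whether the ezrin libraries come from separate cultures, so the spread between them may be technical. No untransfected or wild-type ezrin cells and no input RNA are part of this comparison, so an enrichment over IgG cannot be assigned to the closed form of the protein.

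Cyclins are the regulatory subunits that switch on CDKs. D-type cyclins with Cdk4 and Cdk6 act in G1 and phosphorylate the retinoblastoma protein, which releases E2F factors to transcribe the genes of S phase. Cyclins E and A with Cdk2 then drive replication, and cyclin B with Cdk1 drives mitosis. The INK4 proteins block Cdk4 and Cdk6, and the CIP/KIP proteins act on cyclin-CDK complexes more broadly. Several other members work outside the cycle, in transcription by RNA polymerase II or in neurons. The RB-E2F axis is often disrupted in osteosarcoma.

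Counts totalled 19676595 and 16196329 in ezrin IP replicates 1 and 2 and 10124580 in IgG IP. Protein-coding genes held 97.0% and 97.5% of counts in the ezrin libraries and 74.1% in the IgG library, where reads at the ribosomal RNA remnants Gm26917 and Gm42418 took 16.5%, against 0.122% and 0.198% in the ezrin libraries. Levels are given as CPM, counts per 1e6 scaled by TMM factors, which lessen the effect of such abundant RNAs. The transcript of ezrin itself, Ezr, had 349 and 350.5 CPM in ezrin IP and 155 CPM in IgG IP, and transgene and endogenous reads are not separated in these counts. Of 9 osteoblast markers the summed level was 4533 and 3700.0 CPM in ezrin IP against 2210 CPM in IgG IP, most of it Col1a2, and 3 of the 6 tested were higher and 2 were lower (Runx2, log2 fold −0.73, and Alpl, −1.50), while Ibsp was at 0 in all libraries and Sp7 and Bglap had at most 1 count in a library. Of 6 macrophage markers Adgre1 and Ptprc were at 0 throughout and Csf1r carried nearly all of the summed 964 and 871 CPM against 1234 CPM, and the 5 epithelial markers summed to under 1 CPM in every library.

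Between ezrin IP and IgG IP the cell cycle machinery did not move in 1 direction. Of the 55 members, 51 had a count in at least 1 library and 48 passed the filter on low counts. In edgeR's quasi-likelihood test, adjusted by Benjamini-Hochberg over all 12478 tested genes at a threshold of 0.05, 5 of the 48 were higher in ezrin IP and 11 were lower. The 16 called members are 33.3% of the 48, against 36.4% of all tested genes. The higher members are 10.4%, against 19.0% of all tested genes, and the lower members 22.9%, against 17.4%. The share called in either direction is near the background and is therefore no result about the members, and their median log2 fold was −0.19 against −0.02 over all tested genes. CPM are shares of a library, so more of a message recovered and less of all others cannot be told apart, nor can fewer cells in a phase and less RNA per cell. In all 16 called members both ezrin libraries lay on the same side of the IgG library. The calls were made from these same 3 libraries, so this adds no separate support. Among the 48, both ezrin libraries lay above IgG in 14 members (29.2%, against 42.6% of all tested genes) and below it in 28 (58.3%, against 44.3%). The only called members with a change of at least 2-fold were Cdk1, which was higher, and E2f1 and Ccni, which were lower.

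**Figure D1:**
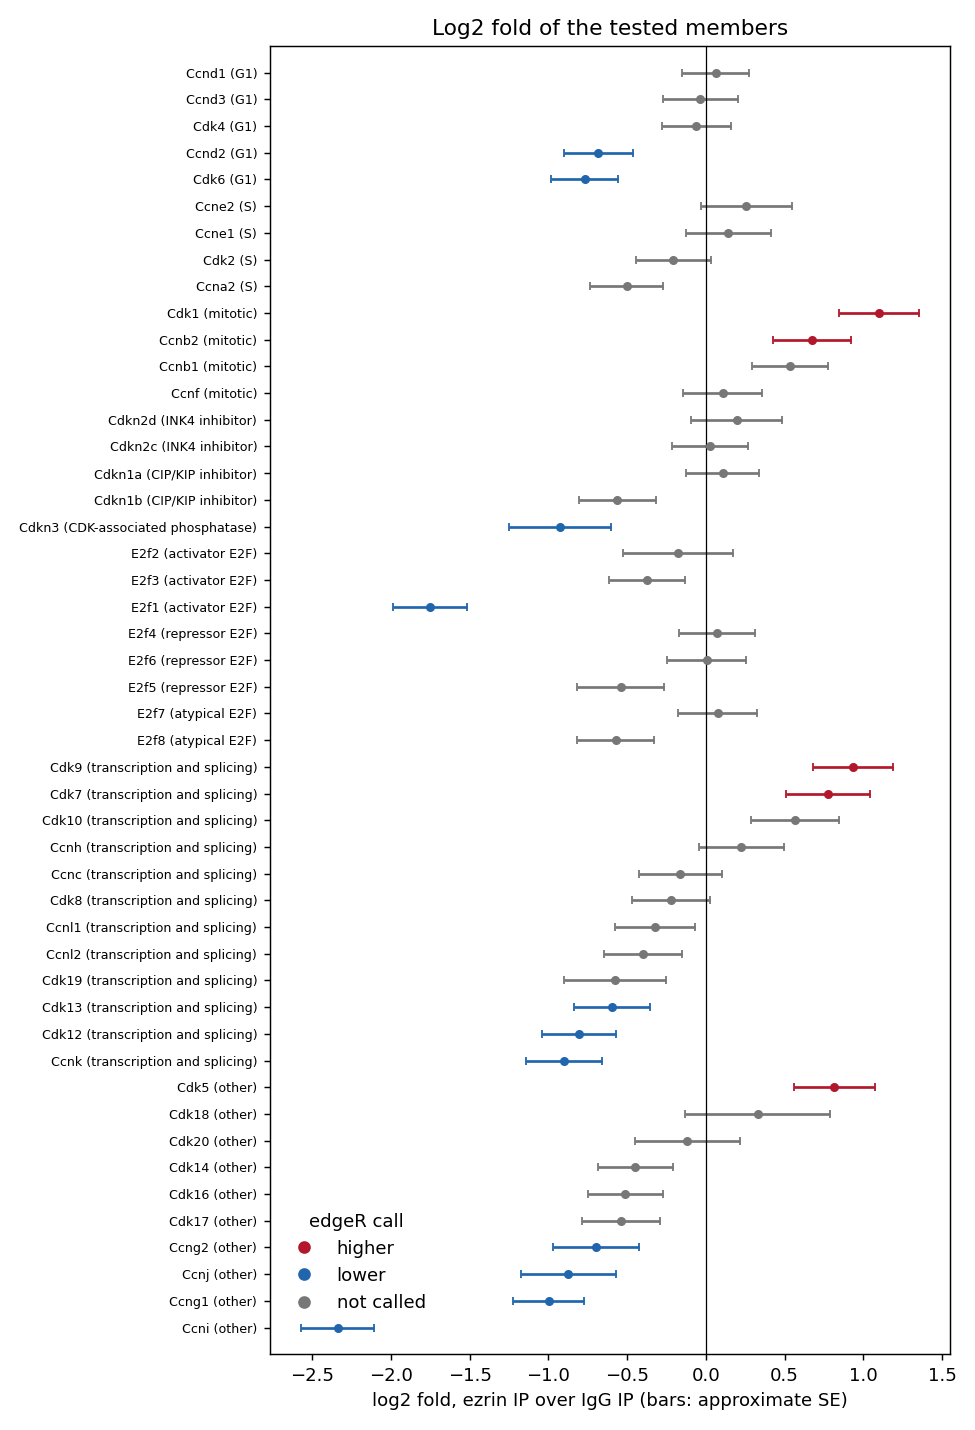
Log2 fold of each of the 48 tested members, ezrin IP (2 libraries) over IgG IP (1 library), with bars for the approximate standard error (SE) and colours for the edgeR call. The mitotic kinase Cdk1 lies farthest to the right at 1.10, and Ccni and E2f1 lie farthest to the left at −2.34 and −1.75.

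By phase of action, 2 of 5 mitotic members were higher and none lower, of 5 S members none was called, and of 5 G1 members 2 were lower and none higher. Over all tested genes 19.0% were higher and 17.4% lower, and counts this small give no result about a phase. At an unadjusted edgeR p under 0.05, 3 mitotic members were higher and none lower, 1 S member was lower, and again 2 G1 members were lower and none higher. DESeq2 called 2 mitotic members higher, no S member and 2 G1 members lower, with none in the other direction. The median log2 fold was 0.61 for the 4 tested mitotic members, −0.031 for the 4 tested S members and −0.059 for the 5 G1 members, against −0.02 over all tested genes. In the single ezrin libraries the medians of the log2 ratio to IgG (with 1 CPM added to both sides) were 0.60 and 0.57 for mitotic, −0.05 and −0.17 for S, and −0.03 and −0.29 for G1 members. The signs of the G1 and S medians turned with the scaling, to 0.061 and 0.0885 with library size as the only scaling, while the mitotic median stayed between 0.42 and 0.95 in the alternatives run. The difference between phases was not tested, since the members of a phase are few and are not replicates.

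The members that rose among the 3 phases were the mitotic kinase Cdk1 and its cyclin Ccnb2. Cdk1 (chromosome 10, 69335146 to 69352912, GRCm38), the kinase that starts mitosis, had 3048 and 2610 counts in ezrin IP and 686 in IgG IP, or 152 and 156 CPM against 71.7 CPM. Both ezrin libraries were well above IgG and close to each other, and the log2 fold was 1.10 (SE 0.25, edgeR adjusted p = 1.11e-04). Ccnb2 (chromosome 9, 70407689 to 70421554), a B-type cyclin that activates Cdk1, had 108 and 82.3 CPM in ezrin IP against 59.5 CPM in IgG IP. The ezrin libraries differed from each other by more than the lower of them differed from IgG, and the log2 fold was 0.68 (SE 0.25, edgeR adjusted p = 0.0226). After cyclic loess, which removes a trend with expression level, the log2 fold of Ccnb2 was 0.52 and missed the threshold (adjusted p = 0.0864). Ccnb1 (chromosome 13, 100778739 to 100786486), the other main mitotic cyclin, had 135 and 168 CPM in ezrin IP against 105 CPM in IgG IP. The groups did not overlap, but the log2 fold of 0.53 (SE 0.24) was not called (edgeR adjusted p = 0.0702). It passed with library size as the only scaling (adjusted p = 0.0247), with no filter (0.0398) and on log2(RPKM + 1) (0.0127). In these settings the median log2 fold of all tested genes was 0.10, 0.07 and 0.22, against −0.02 in the main fit. Ccnf, the F-box cyclin of G2, had 59.1 and 45.2 CPM in ezrin IP on either side of 48.4 CPM in IgG IP (log2 fold 0.11, SE 0.25). The germ cell cyclin Ccnb3 had no count.

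The promoters of mitotic genes share known sequence elements, and those of the 3 mitotic members with the highest folds are shown here to set them beside the measured RNA. The windows run from 250 bases before the annotated start to 50 bases after it, on the gene's strand, from RefSeq (GRCm38.p6). Capitals mark the cell cycle genes homology region (CHR, TTTGAA) and the CCAAT box (CCAAT), each searched on both strands, so that a box on the opposite strand reads ATTGG. No marked match overlaps another.
Cdk1, chr10:69352863-69353162, minus strand: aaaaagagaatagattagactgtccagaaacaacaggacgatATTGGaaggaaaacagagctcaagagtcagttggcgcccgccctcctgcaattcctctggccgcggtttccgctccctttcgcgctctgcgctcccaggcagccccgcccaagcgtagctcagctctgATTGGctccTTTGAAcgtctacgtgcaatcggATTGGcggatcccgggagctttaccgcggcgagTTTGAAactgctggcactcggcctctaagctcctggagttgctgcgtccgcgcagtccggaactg
Ccnb2, chr9:70421505-70421804, minus strand: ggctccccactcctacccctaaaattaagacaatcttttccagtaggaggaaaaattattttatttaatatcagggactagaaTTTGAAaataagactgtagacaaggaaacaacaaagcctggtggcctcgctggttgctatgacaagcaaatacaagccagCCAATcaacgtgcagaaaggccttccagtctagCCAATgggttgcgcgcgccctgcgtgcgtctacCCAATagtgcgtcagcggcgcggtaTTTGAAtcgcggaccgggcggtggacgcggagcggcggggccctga
Ccnb1, chr13:100786437-100786736, minus strand: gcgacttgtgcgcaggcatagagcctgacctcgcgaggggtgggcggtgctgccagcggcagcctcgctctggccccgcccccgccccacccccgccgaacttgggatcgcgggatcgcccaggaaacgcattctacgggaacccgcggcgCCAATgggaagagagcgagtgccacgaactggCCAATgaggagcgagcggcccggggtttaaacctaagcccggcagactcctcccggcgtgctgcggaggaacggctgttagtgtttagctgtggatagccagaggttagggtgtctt

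The Cdk1 window holds a CHR from −15 to −10 relative to the start and another from −71 to −66, with 3 CCAAT boxes. That of Ccnb2 holds a CHR from 5 to 10 and another from −167 to −162, also with 3 CCAAT boxes. The Ccnb1 window has 2 CCAAT boxes, from −99 to −95 and from −67 to −63, and these 6 CHR letters are not in it. No other form of the CHR was searched, so a variant of the element would not be marked in any window. Ccnf, which was not called, also has a CHR, from −14 to −9, and another from −130 to −125. The element is also in members called lower, Ccni, from −137 to −132 and from −92 to −87, and Cdkn3, from −111 to −106. The remaining carriers, Cdk16, Cdkn2b, E2f2, E2f3 and E2f8, were not called or not tested. Of 43 members with a promoter window 10 had a CHR and 25 a CCAAT box in at least 1 window. Counted by window, 10 of their 50 windows held a CHR and 26 a CCAAT box. Among all 32851 RefSeq windows of this length 17.9% held a CHR and 37.4% a CCAAT box. The elements are a description of the genes, and the RNA recovered with ezrin gives no measure of promoter activity.

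**Figure D2:**
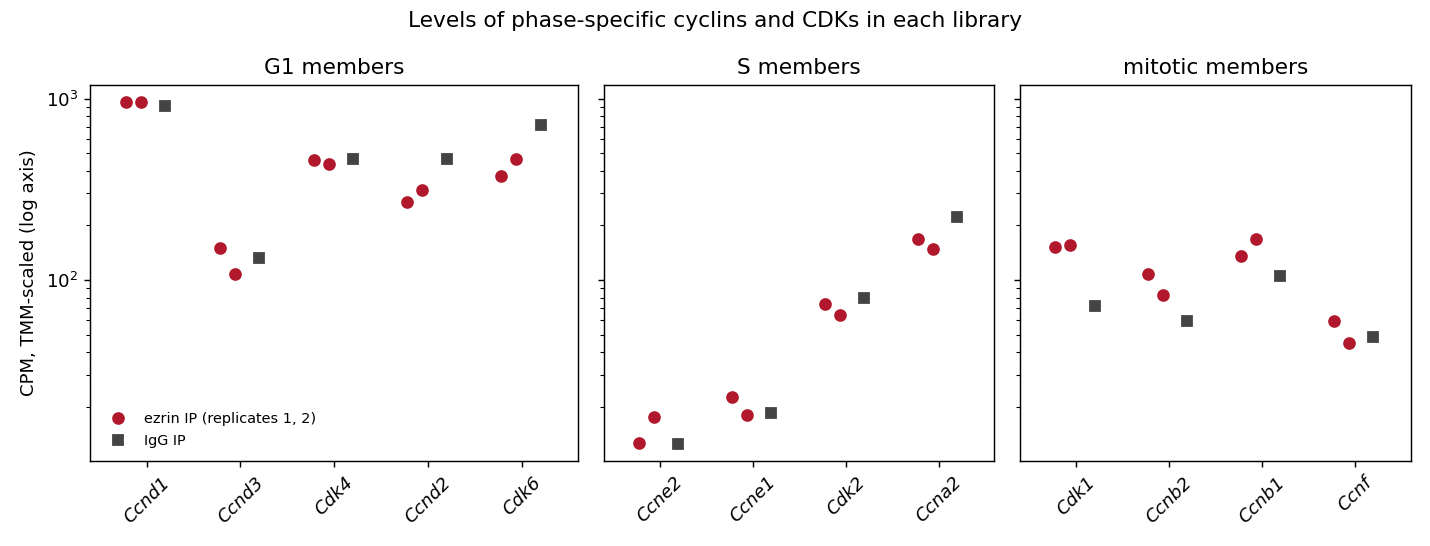
CPM (TMM-scaled, log axis) of the tested G1, S and mitotic members, with circles for ezrin IP replicates 1 and 2 and squares for the 1 IgG IP library. Cdk1, Ccnb2 and Ccnb1 lie above their IgG value in both ezrin libraries, and Ccnd2, Cdk6 and Ccna2 lie below it.

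The G1 members called were Cdk6 and Ccnd2. Cdk6 (chromosome 5, 3341004 to 3531008), which pairs with D-type cyclins, had 376 and 464 CPM in ezrin IP against 715 CPM in IgG IP. Both ezrin libraries were below IgG, and the log2 fold was −0.77 (SE 0.21, edgeR adjusted p = 0.00174). Its paralogue Cdk4 (chromosome 10, 127063535 to 127067288) had 457 and 437 CPM in ezrin IP against 466 CPM in IgG IP (log2 fold −0.06, SE 0.22, edgeR adjusted p = 0.858), and after cyclic loess at −0.52 it was near the threshold (adjusted p = 0.053). The difference between the folds of Cdk6 and Cdk4 was not tested. Ccnd2 (chromosome 6, 127125162 to 127152188) had 269.6 and 313 CPM in ezrin IP against 467 CPM in IgG IP. It was lower in both ezrin libraries (log2 fold −0.68, SE 0.22, edgeR adjusted p = 0.00771). Cyclin D1, Ccnd1 (chromosome 7, 144929931 to 144939831), had 953 and 957 CPM in ezrin IP against 915 CPM in IgG IP. Its log2 fold of 0.06 (SE 0.21) was not called, and after cyclic loess it turned to −0.56 and was called lower (adjusted p = 0.0331). Ccnd3 had 151 and 108 CPM in ezrin IP on either side of 133 CPM in IgG IP (log2 fold −0.04, SE 0.24). On log2(RPKM + 1) Cdk6 and Ccnd2 kept their sign but missed the threshold (adjusted p = 0.204 and 0.305). On that scale the median log2 fold of all tested genes was 0.22, against −0.02 in the main fit.

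No S phase member was called, and 3 of the 4 tested had folds within about 1 SE of 0. Ccna2, cyclin A of S phase and G2, had 168 and 147 CPM in ezrin IP against 224 CPM in IgG IP. Both ezrin libraries were below IgG, and the log2 fold of −0.50 (SE 0.23, edgeR adjusted p = 0.0716) was not called, although the stricter filter of 10 CPM on average called it lower (−0.61, adjusted p = 0.0161), as did cyclic loess (−0.77, adjusted p = 0.00735). Cdk2, the kinase that cyclins E and A activate, had 73.7 and 64.4 CPM in ezrin IP against 79.6 CPM in IgG IP (log2 fold −0.21, SE 0.24). Ccne1 had 22.8 and 18.1 CPM in ezrin IP against 18.5 CPM in IgG IP (log2 fold 0.14, SE 0.27). Ccne2 had 12.6 and 17.5 CPM in ezrin IP against 12.5 CPM in IgG IP (log2 fold 0.26, SE 0.29). For the E cyclins the ezrin libraries lay apart by more than their mean lay from IgG, and the germ cell cyclin Ccna1 had no count.

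Per length, the order of the members put the G1 transcripts Ccnd1 and Cdk4 on top. The other G1 members, Ccnd2, Cdk6 and Ccnd3, ranked 12, 13 and 16 by the mean of the ezrin libraries. RPKM, the deposited counts per kilobase and per 1e6 reads, was highest for Ccnd1, at 169.8 and 175 in ezrin IP and 126 in IgG IP, and next for Cdk4, at 118 and 116 in ezrin IP and 93.0 in IgG IP. The rank of Cdk1 among the members was 11 by the mean of the ezrin libraries and 19 in IgG IP.

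None of the 4 tested CDK inhibitors proper was called by edgeR or DESeq2, and 1 was lower at an unadjusted edgeR p under 0.05. Over all tested genes edgeR called 36.4% and DESeq2 22.3%, and 4 genes are too few for a result about the inhibitors. Cdkn1a, which encodes p21, the CDK inhibitor that p53 induces, had 276 and 262 CPM in ezrin IP against 250.2 CPM in IgG IP (log2 fold 0.11, SE 0.23, edgeR adjusted p = 0.748). Cdkn2c, an INK4 inhibitor of Cdk4 and Cdk6, had 105 CPM in both ezrin libraries against 103 CPM in IgG IP (log2 fold 0.03, SE 0.24). Cdkn2d, the INK4 gene next in level, had 13.6 and 15.2 CPM in ezrin IP against 12.5 CPM in IgG IP (log2 fold 0.20, SE 0.29). In these 3 genes both ezrin libraries lay above IgG, by less than 1 SE in the fold. Cdkn1b, which encodes p27, had 42.3 and 35.9 CPM in ezrin IP against 57.7 CPM in IgG IP. It lay below IgG in both ezrin libraries without a call (log2 fold −0.56, SE 0.25, edgeR adjusted p = 0.0589), and both the filter of 10 CPM on average (adjusted p = 0.0207) and cyclic loess (0.0411) called it lower. Cdkn3, a phosphatase that removes the activating phosphate of CDKs and shares a symbol but not a mechanism with the inhibitors, had 114 and 119 counts in ezrin IP and 116 in IgG IP. At 5.68 and 7.09 CPM against 12.1 CPM it was lower (log2 fold −0.93, SE 0.32, edgeR adjusted p = 0.0144), and DESeq2 did not call it (adjusted p = 0.245). The locus that encodes p16 and ARF, Cdkn2a, was near the floor with 8 and 6 counts in ezrin IP and 5 in IgG IP, and Cdkn2b and Cdkn1c had no count.

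Among the E2Fs 1 of 8 was called (12.5%, against 36.4% of all tested genes). E2f1 (chromosome 2, 154559400 to 154569892), an activator that drives entry into S phase, had 943 and 589 counts in ezrin IP and 1324 in IgG IP, or 47.0 and 35.1 CPM against 138 CPM. It was lower in both ezrin libraries (log2 fold −1.75, SE 0.23, edgeR adjusted p = 3.98e-12), or 3.37-fold lower, and was called lower in each of the 8 other tests run. The other activators were not called, with E2f3 at 65.9 and 61.2 CPM in ezrin IP against 82.4 CPM in IgG IP (log2 fold −0.37, SE 0.24), and E2f2 at 6.53 and 6.80 CPM against 7.52 CPM (−0.18, SE 0.35). Of the repressors, E2f4 had 116 and 90.7 CPM in ezrin IP on either side of 98.2 CPM in IgG IP (log2 fold 0.07, SE 0.24). E2f6 had 41.3 and 39.5 CPM in ezrin IP and 40.2 CPM in IgG IP (log2 fold 0.00, SE 0.25). E2f5 had 13.4 and 10.7 CPM in ezrin IP against 17.6 CPM in IgG IP (log2 fold −0.54, SE 0.28, edgeR adjusted p = 0.115), and the filter of 10 CPM on average called it lower (0.0481). Per length, E2f4 stood above E2f1 3.17-fold and 3.32-fold in the ezrin libraries and was at 0.913 of it in the IgG library. The atypical members E2f7 and E2f8, which bind DNA without a partner and repress E2F targets, had log2 folds of 0.08 (SE 0.25) and −0.57 (SE 0.24). E2f8 had 45.9 and 41.3 CPM in ezrin IP against 64.9 CPM in IgG IP, just outside the threshold (edgeR adjusted p = 0.0524), and it was called lower by the filter of 10 CPM on average (adjusted p = 0.0169), after cyclic loess (0.0332) and with protein-coding genes only (0.0448).

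Of 12 members that act in transcription or splicing, 2 were higher (16.7%, against 19.0% of all tested genes) and 3 were lower (25%, against 17.4%), and no test of whole complexes was made. Cdk9, the kinase of P-TEFb that releases paused polymerase, had 91.4 and 76.3 CPM in ezrin IP against 43.9 CPM in IgG IP. It was higher in both ezrin libraries (log2 fold 0.93, SE 0.26, edgeR adjusted p = 0.00149), whereas its cyclin partner Ccnt2 (not a member by symbol) was lower at −1.35 (SE 0.26, edgeR adjusted p = 2.27e-06) and Ccnt1 was at −0.45 (SE 0.24, edgeR adjusted p = 0.123). Cdk7, the kinase of the CDK-activating complex and of TFIIH, had 33.1 and 37.7 CPM in ezrin IP against 20.7 CPM in IgG IP and was higher (log2 fold 0.77, SE 0.27, edgeR adjusted p = 0.0138). Its partners Ccnh and Mnat1 had log2 folds of 0.23 (SE 0.27) and 0.61 (SE 0.26) and were not called, and DESeq2 left Cdk7 just outside (adjusted p = 0.0596). In the third complex, which keeps the transcription of long genes going, Ccnk and both of its kinases were lower. Ccnk had 34.1 and 30.4 CPM in ezrin IP against 60.2 CPM in IgG IP (log2 fold −0.90, SE 0.24, edgeR adjusted p = 0.00131). Cdk12 had 59.3 and 65.5 CPM in ezrin IP against 109 CPM in IgG IP (log2 fold −0.81, SE 0.24, edgeR adjusted p = 0.00306). Cdk13 had 55.0 and 52.8 CPM in ezrin IP against 81.4 CPM in IgG IP (log2 fold −0.60, SE 0.24, edgeR adjusted p = 0.0386). Both ezrin libraries were below IgG in each of these 3 genes, as in 44.3% of all tested genes. The calls came from the same libraries, so this adds no separate support. None of the 3 passed on log2(RPKM + 1) (adjusted p = 0.101, 0.237 and 0.582), where the median log2 fold of all tested genes was 0.22. Cdk13 missed in 4 of 8 alternative tests. The Mediator kinases Cdk8 and Cdk19 and their cyclin Ccnc were not called, with log2 folds of −0.22, −0.57 and −0.16, and neither were the splicing cyclins Ccnl1 and Ccnl2 (−0.32 and −0.40) and Cdk10 (0.57), which was higher with library size as the only scaling (adjusted p = 0.0401) and on log2(RPKM + 1) (0.0303).

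**Figure D3:**
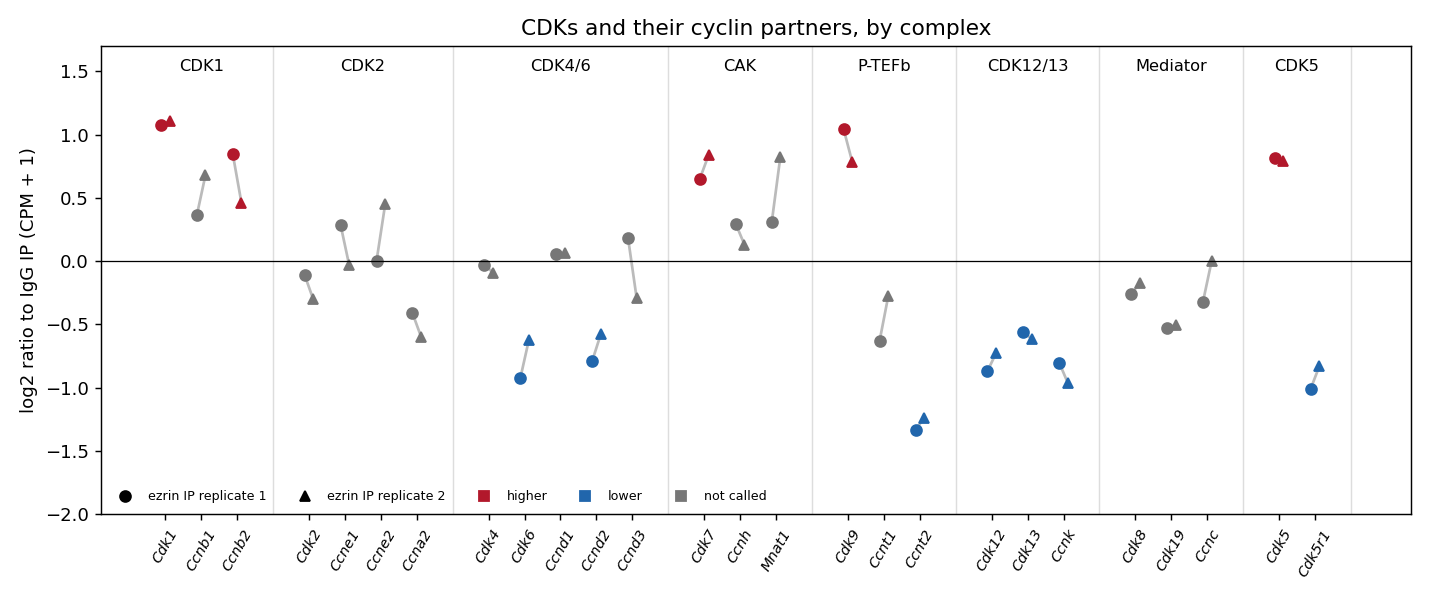
Log2 ratio of each ezrin IP library (circles replicate 1, triangles replicate 2) to the IgG IP library, with 1 CPM added to both, for CDKs and their partners by complex, coloured by the edgeR call. Both libraries of Cdk1, Cdk7, Cdk9 and Cdk5 lie above 0, and those of Cdk12, Cdk13 and Ccnk lie below it.

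Of the 10 remaining members tested, 1 was higher (10.0%, against 19.0% of all tested genes) and 4 were lower (40.0%, against 17.4%). Counts this small give no result about these members as a group. Cdk5 (chromosome 5, 24407597 to 24423587), a CDK best known in neurons that uses non-cyclin activators, had 71.8 and 70.8 CPM in ezrin IP against 40.4 CPM in IgG IP (log2 fold 0.82, SE 0.26, edgeR adjusted p = 0.00647). Its annotated span shares 5163 bases with that of Abcb8, which had 68.2 and 57.5 CPM in ezrin IP against 41.5 CPM in IgG IP (log2 fold 0.60, edgeR adjusted p = 0.0522). The sources used here do not give whether strand was used in counting, so reads of Cdk5 and Abcb8 may not be fully separated. Of the 16 called members 9 have a span that overlaps another annotated gene, against 28 of all 55 members. Some of these overlaps are short, such as 7 bases for E2f1 and 38 for Ccnk. The Cdk5 activator Cdk5r1 was rare and lower, at 39 and 39 counts in ezrin IP and 47 in IgG IP (log2 fold −1.20, SE 0.47, edgeR adjusted p = 0.0299).

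Cyclin I, Ccni (chromosome 5, 93181933 to 93206495), an atypical cyclin with little change through the cycle, had the lowest fold of all members. It had 538 and 550 counts in ezrin IP and 1441 in IgG IP, or 26.8 and 32.8 CPM against 151 CPM. Both ezrin libraries were far below IgG, and the log2 fold was −2.34 (SE 0.23, edgeR adjusted p = 3.97e-21), or 5.06-fold lower. Its span overlaps the pseudogene Gm2986 by 563 bases and the gene now named Septin11 by 436 bases. Septin11 is listed as Sept11 and was itself lower (log2 fold −0.61, edgeR adjusted p = 0.0166). Ccng1, a p53 target, had 142 and 149.6 CPM in ezrin IP against 291 CPM in IgG IP and was lower (log2 fold −0.997, SE 0.226, edgeR adjusted p = 9.66e-05). Cdkn1a, also a p53 target, was not called, as given above. Ccng2, the relative of Ccng1, had 11.3 and 13.1 CPM in ezrin IP against 19.8 CPM in IgG IP (log2 fold −0.70, SE 0.27, edgeR adjusted p = 0.0324), a call that 5 of 8 alternative tests did not make. Ccnj had 9.07 and 6.74 CPM in ezrin IP against 14.5 CPM in IgG IP (log2 fold −0.87, SE 0.30, edgeR adjusted p = 0.0139), and DESeq2 did not call it (adjusted p = 0.234). Cdk14, Cdk16 and Cdk17 lay below IgG in both ezrin libraries with log2 folds of −0.45, −0.51 and −0.54 and were not called. The filter of 10 CPM on average called all 3 lower (adjusted p = 0.0342, 0.0184 and 0.026), as it did 21.7% of all genes tested there. Cyclic loess called Cdk14 and Cdk16 lower (adjusted p = 0.0392 and 0.0297), as it did 17.2% of all tested genes. Cdk18 and Cdk20 had log2 folds of 0.33 and −0.12 (SE 0.46 and 0.33), and Cdk3, annotated as a transcribed pseudogene, and Cdk15 had at most 7 counts in a library.

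Other genes of the pathway were described from 4 lists of 59 measured genes. Of 18 genes that E2F factors are known to activate for DNA replication and nucleotide synthesis, 15 were higher (83.3%, against 19.0% of all tested genes) and none lower, with a median log2 fold of 1.25. The list leaves out E2F targets with other roles and was chosen with earlier results of these data known, so its share does not extend to E2F targets at large. At an unadjusted edgeR p under 0.05 also 15 were higher and none lower, DESeq2 called 14 higher and none lower, and over the alternative tests 14 to 16 were higher. The highest was Mcm3, a subunit of the replicative helicase, with 494 and 467 CPM in ezrin IP against 120 CPM in IgG IP (log2 fold 2.004, SE 0.249, edgeR adjusted p = 9.68e-14). The lowest called target was Cdt1, which licenses origins, at a log2 fold of 0.78 with SE 0.24 (edgeR adjusted p = 0.00629), and Tyms and Ung were among the targets not called. In the same libraries E2f1 itself was lower and no E2F was higher.

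The 3 other lists hold regulators of the members. Of 12 RB family members, E2F partners and subunits of the MuvB complex, 1 was higher and 2 were lower, with a median of −0.31. The 3 called are 25% of the list, against 36.4% of all tested genes. Rb1, which encodes the retinoblastoma protein, had 12.2 and 16.1 CPM in ezrin IP against 21.0 CPM in IgG IP (log2 fold −0.57, SE 0.27, edgeR adjusted p = 0.0781). The called ones ran from Lin37 (1.31, SE 0.32, edgeR adjusted p = 3.50e-04) of MuvB to Tfdp2 (−1.19, SE 0.24, edgeR adjusted p = 1.27e-05), a DNA-binding partner of E2Fs. Of 14 kinases, phosphatases and subunits that act on or with CDKs, none was higher and 4 were lower, with a median of −0.40. The 4 called are 28.6% of the list, against 36.4% of all tested genes. At an unadjusted edgeR p under 0.05, 3 of the 14 were higher and 6 lower, and DESeq2 called none higher and 3 lower. Wee1, which inhibits Cdk1, was among the lower at −0.80 (SE 0.24, edgeR adjusted p = 0.00421). Of 15 genes for the turnover of cyclins and inhibitors, 6 were higher (40.0%, against 19.0% of all tested genes) and 2 lower (13.3%, against 17.4%), with a median of 0.30. The highest was Anapc2 (1.94, SE 0.26, edgeR adjusted p = 2.69e-12), a subunit of the complex that degrades cyclin B, and its activator Cdc20 had 394 and 419 CPM in ezrin IP against 143 CPM in IgG IP (1.51, SE 0.24, edgeR adjusted p = 1.86e-08). The lowest was Fbxw7 (−1.33, SE 0.24, edgeR adjusted p = 5.33e-07), which targets cyclin E.

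**Figure D4:**
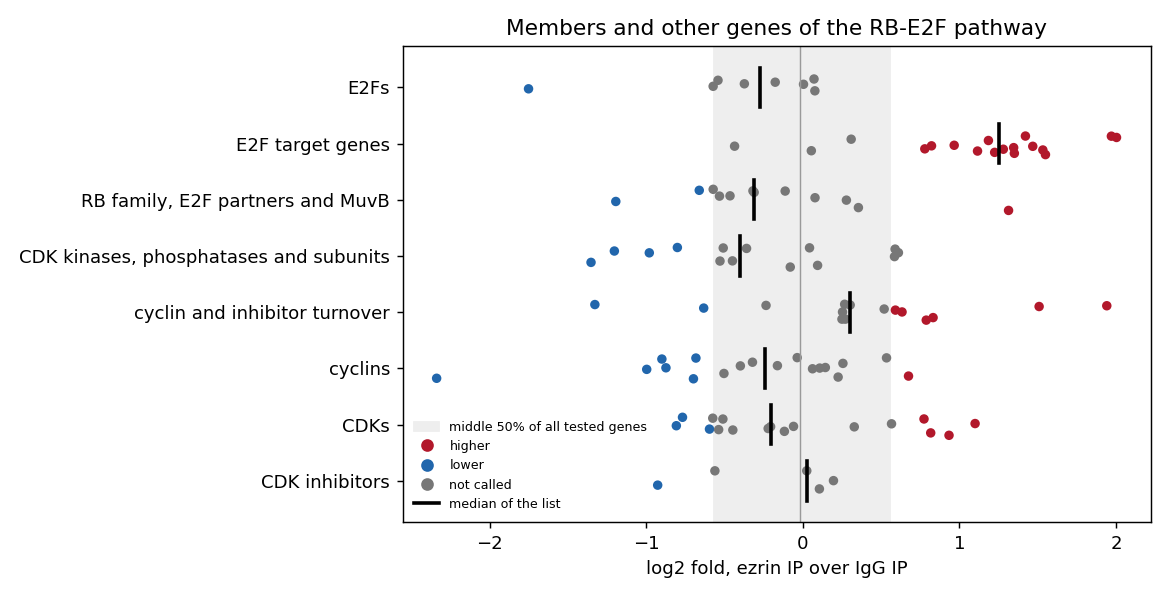
Log2 fold, ezrin IP over IgG IP, of each tested gene in the 4 pathway lists and the 4 member families, with points coloured by the edgeR call, black bars for list medians and grey for the middle 50% of all tested genes. The listed E2F targets, for DNA replication and nucleotide synthesis, have a median of 1.25 and the E2Fs one of −0.27.

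Length and level were compared with the folds. The length implied by count over RPKM had a median of 3706 bases in the 5 higher members, 4355 in the 11 lower and 4823 in the 32 not called. Across the 48 tested members the Spearman correlation of the log2 fold with length was −0.225, and with mean log2 CPM −0.0228, against −0.0512 and 0.261 across all 12478 tested genes. These points share the same 3 libraries and genes are not replicates, so the correlations describe the tables only. With a trend on length subtracted, the phase medians were 0.54 for mitotic, −0.08 for S and −0.15 for G1 members.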

How the data were processed

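RIP-seq was analysed in 2 ezrin IP libraries and 1 IgG IP library. Per the labels, RNA from a commercial RIP kit was depleted of ribosomal RNA and read in pairs, and the build was GRCm38 per the submitters' processing notes. The sources used here give no aligner, counter, annotation or use of strand, and the labels also name polyA RNA as the molecule. Raw counts by gene symbol and RPKM values were deposited by the authors. Totals were 10124580 to 19676595 counts.

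The deposited counts were tested with edgeR 4.0.16 (R 4.3.3): TMM, filterByExpr, the quasi-likelihood test and Benjamini-Hochberg adjustment at 0.05 over 12478 genes. With 1 residual degree of freedom, the spread comes from the ezrin libraries and is taken to hold for IgG too. Prior degrees of freedom were infinite, so every gene took the pooled spread. SE is the log2 fold over the square root of F and is approximate. Alternatives used DESeq2 1.42.0 and limma 3.58.1. RefSeq (GRCm38.p6) gave biotypes and coordinates, with 30216 symbols matched, and promoters of 43 members. Gene lengths came from count over RPKM, scaled on short RNA genes of known length.

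The members, the lists and the genes named were chosen with earlier results of these data known. The naming rule took every member, Rb1, Cdc20 and the highest and lowest called gene of each pathway list, and Ezr, Ccnt1, Mnat1, Cdk5r1, Abcb8, Sept11, Tyms and Ung were added after their values were seen. The naming rule's protein stretches are not shown, and promoter windows were chosen in their place after the results were seen.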

Additional observations from a re-analysis of the deposited data

How the results depend on the processing

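No paired analysis was possible because the groups share only replicate number 1. With 1 IgG library, leaving out an ezrin library leaves no test, so those values carry none, and IgG itself could not be left out. Of the 16 called members, Cdk1, Cdk5, Cdk9, E2f1, Ccni and Ccng1 kept their call in all 8 other tests. The members called lower numbered 11, against 3 on log2(RPKM + 1), 7 with DESeq2 and 16 both at a mean of at least 10 CPM, where 42 members were tested, and after cyclic loess. Of all tested genes 17.4% were lower, against 7.73%, 7.97%, 21.7% and 17.2% in these 4 settings and 14.1% with library size only. Members called higher numbered 5, against 4 to 7. Of all tested genes 19.0% were higher, against 14.3% with DESeq2 to 29.9% on log2(RPKM + 1). On log2(RPKM + 1) the median of all tested genes moved up to 0.22, and its counts over all genes were 3734 higher and 964 lower, against 2377 and 2171. DESeq2 called 1021 genes lower. Pathway genes called lower numbered 8, against 5 with library size only, 13 after cyclic loess, 3 on log2(RPKM + 1) and 5 with DESeq2. The G1 median of −0.059 turned to 0.061 with library size only, 0.0345 with no filter and 0.31 on log2(RPKM + 1), and moved to −0.56 after cyclic loess. The S median of −0.031 turned to 0.0885, 0.0631 and 0.30 in the first 3 of these and to 0.0106 with DESeq2, and was −0.14 at a mean of at least 10 CPM. The mitotic median of 0.61 was 0.73 with library size only, 0.70 with no filter, 0.49 at a mean of at least 10 CPM, 0.42 after cyclic loess, 0.95 on log2(RPKM + 1), 0.65 with DESeq2 and 0.54 with the length trend subtracted. Leaving out each ezrin library gave medians of −0.293 to −0.0277 for G1, −0.167 to −0.0542 for S and 0.57 to 0.60 for mitotic members. Ccnd1, not called at 0.06, was lower at −0.56 after cyclic loess (adjusted p = 0.0331). The cause of these moves was not tested. The alternative with protein-coding genes only was chosen after seeing the data and gave 5 higher and 12 lower members. Cdkn3 and Ccnj had 113 to 182 counts in a library.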
